A study of Homo sapiens with 36 samples.

Results

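The 10 genes described here encode RNA-binding proteins that set neuronal splicing and mRNA handling: PTBP1, PTBP2, NOVA1, NOVA2, RBFOX2, RBFOX3, ELAVL2, ELAVL3, ELAVL4 and SRRM4. They were taken by gene symbol from the deposited expected-count and TPM tables, where each symbol had 1 row among 62710 genes, and all 10 entered every test. The series follows the human embryonic stem cell line H9 as it is turned into neurons (iNeurons) by doxycycline-driven expression of NGN2, a proneural transcription factor encoded by NEUROG2. The genotypes, wild type (WT), RAI1 Het (RAI1+/−, here HET) and RAI1 Knockout (RAI1−/−, here KO), were each sampled on days 0, 3 and 7, which gave 9 groups of 4 libraries, or 36 libraries. The RAI1 protein is a regulator associated with chromatin. Every group carried the NGN2 system, and induction used doxycycline in a neuronal medium with CultureOne and the growth factors NT3 and GDNF. Whether that system was equal between genotypes was not tested, and NEUROG2 levels differed on day 0, as given below. The 4 reporter rows of the count table differed on day 0 too. They took 0.0133% to 0.0171% of counts in WT, 0.00713% to 0.0106% in HET and 0.00359% to 0.00514% in KO. On day 3 the genotypes overlapped, and on day 7 KO (0.000637% to 0.00108%) lay below WT (0.0026% to 0.00713%). How these rows relate to the NGN2 system was not tested. The alleles, the number of edited clones and the source of each replicate culture are not given in the sources used here, so p-values measure the spread between these libraries, which may be partly technical.

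A switch in RNA-binding proteins accompanies neuron formation. PTBP1 represses neuronal exons in dividing cells, and as it is lost its paralog PTBP2 takes over for a time. NOVA, RBFOX and SRRM4 proteins then activate neuronal exons, SRRM4 above all microexons, while neuronal ELAVL (Hu) proteins bind AU- and U-rich elements and affect both mRNA stability and splicing. REST holds neuronal genes off in non-neuronal cells, and the microRNA miR-124 lowers PTBP1.

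Totals ran from 23.9 M to 56.7 M counts per library. Small structural RNAs (RN7SL1, RN7SL2, RN7SK, RPPH1, RMRP) took 2.84% to 27.5% of counts, most in HET day 7 replicate 1 and WT day 7 replicate 1 (25.6%). RAI1 itself was not lower in either mutant: on day 0 the WT libraries averaged 33.3 ± 8.26 normalised CPM (SD, n = 4), the HET libraries 38.0 ± 7.84 and the KO libraries 37.0 ± 12.3, and on day 7 RAI1 was higher in KO than in WT (86.7 ± 16.2 against 52.1 ± 14.8, log2 change 0.69 ± 0.22, edgeR adjusted p = 0.0296). Its level therefore did not check the genotype labels. Of 6 pluripotency genes, POU5F1, NANOG and TDGF1 were at or below 0.237 normalised CPM in all libraries on day 7. The other 3 were still counted then and differed in KO: LIN28A (253 against 23.7 in WT) and DNMT3B (58.7 against 34.2) were higher, and DPPA4 (6.76 against 32.7) was lower. LIN28A was also higher in HET (101.5). Normalised CPM are CPM after TMM scaling, which gives each library a scale factor and does not remove every difference in composition between libraries. All changes are log2 ± SE from edgeR unless TPM is named. In such bulk samples, fewer cells of a type and less RNA per cell cannot be told apart.

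Upstream sequences are shown for 4 of the genes that reach high levels under NGN2 or differ between genotypes, because proneural factors bind E-boxes. Promoter windows of RefSeq (GRCh38.p14, 250 bases before to 50 after each start) were given for 8 of the 10 genes, 33 windows in all. The E-box CATCTG, which reads CAGATG on the opposite strand, was in 7 of 33 windows (21.2%), belonging to 4 genes, against 14.7% of 35116 windows of the same length over all genes, and the E-box CAGCTG was also in 7 of 33, belonging to 3 genes, against 17.9%. Windows of a gene can overlap, so they are not separate promoters. The RBFOX3 windows chr17:79658926-79659225 and chr17:79658906-79659205, for example, hold the same CAGATG, which is counted in both. The parts free of annotated exons are printed 5′ to 3′ on the gene's strand, with matches to CATCTG or CAGCTG on either strand in capitals: PTBP2 at chr1:96722388-96722637 (+), 1 of several ELAVL4 starts at chr1:50108670-50108919 (+), chosen for its CATCTG match, SRRM4 at chr12:118981291-118981494 (+), and NOVA2 at chr19:45973866-45974115 (−), which has neither of these. Other E-box sequences were not searched for and stay in lower case. A match describes the letters only.
PTBP2: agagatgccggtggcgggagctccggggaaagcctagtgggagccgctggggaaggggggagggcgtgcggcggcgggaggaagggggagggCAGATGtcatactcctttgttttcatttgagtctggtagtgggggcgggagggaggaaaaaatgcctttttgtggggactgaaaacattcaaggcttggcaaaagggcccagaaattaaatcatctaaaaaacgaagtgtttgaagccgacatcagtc
ELAVL4: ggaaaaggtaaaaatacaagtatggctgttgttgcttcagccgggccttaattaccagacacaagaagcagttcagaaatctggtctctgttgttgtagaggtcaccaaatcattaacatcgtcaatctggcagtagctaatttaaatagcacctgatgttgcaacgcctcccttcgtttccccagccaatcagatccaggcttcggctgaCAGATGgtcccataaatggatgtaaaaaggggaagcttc
SRRM4: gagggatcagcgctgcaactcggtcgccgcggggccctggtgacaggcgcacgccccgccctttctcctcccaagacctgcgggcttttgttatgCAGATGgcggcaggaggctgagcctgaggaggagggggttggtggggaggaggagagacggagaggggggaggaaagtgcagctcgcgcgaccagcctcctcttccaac
NOVA2: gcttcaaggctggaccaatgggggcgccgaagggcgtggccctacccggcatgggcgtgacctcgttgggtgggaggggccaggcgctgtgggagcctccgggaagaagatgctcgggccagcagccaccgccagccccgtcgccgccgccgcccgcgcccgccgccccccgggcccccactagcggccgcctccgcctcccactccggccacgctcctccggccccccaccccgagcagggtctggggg

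During WT induction from day 0 to day 3, 8 of the 10 genes passed the test, 7 higher and PTBP1 lower, against 60% of all 22268 genes tested (31.2% higher, 28.7% lower). From day 3 to day 7, 9 of 10 passed, 7 higher with PTBP1 and PTBP2 lower, against 46.2% (23.3% higher, 22.9% lower). The median change of the 10 was 1.73 and then 1.22, against 0.07 and 0.01 over all genes. Both shares lay above a background that was itself high, and they are read here gene by gene.

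Between genotypes, no gene of the 10 passed on day 0: 0 in KO against WT (background 2.08%), 0 in HET against WT (1.63%) and 0 in KO against HET (0.856%), by edgeR, with 2, 2 and 0 at an unadjusted p under 0.05. With same-numbered replicates as a block, 2 passed in KO against WT, NOVA2 (0.72, adjusted p = 0.00236) and SRRM4 (−0.59, adjusted p = 0.0415), and DESeq2 called 1, ELAVL2 (1.01, adjusted p = 0.0424). Of all 20437 genes, the block called 960 there and DESeq2 902, against 425 in the main fit. On day 3, 8 of 10 were higher in KO than in WT and 0 lower, against 21.6% of genes called and 12.6% called higher. The same 8 had every KO library above every WT library, against 16.1% of genes with at least 1 normalised CPM. HET passed for 3 of 10 on day 3, all higher (background 3.28%, 2.52% higher), with 5 of 10 wholly above WT (background 5.84%), and for 6 of 10 with the replicate block, which added NOVA1, SRRM4 and ELAVL2. The block raised the calls over all 21563 genes as well, from 708 to 1895. KO exceeded HET for 2 of 10 on day 3 (background 4.35%, 2.77% higher). By day 7, 4 of 10 passed in KO against WT, 2 in each direction (background 32.6%, 17.0% higher and 15.6% lower, a share near that of the 10), and 4 of 10 in HET against WT, again 2 in each direction (background 14.4%, 8.31% higher and 6.1% lower). On log2(TPM + 1) with limma, 3 of 10 passed in KO and 1 in HET on day 3, and 0 passed in either on day 7. Fewer genes passed in all on that scale: 816 in KO and 39 in HET of 21563 on day 3. On day 7 these were 1007 and 271 of 21714. KO against HET gave 0 of 10 on day 7 (background 1.4%), with 2 at an unadjusted p under 0.05 and 1 called by DESeq2 (857 of 21714 genes called there). The interaction, which asks whether a change over time differs from that of WT, passed for 6 of 10 in KO from day 0 to day 3, all higher (background 8.42%, 5.05% higher), and for 6 from day 3 to day 7, 1 higher and 5 lower (background 18.6%, 8.49% higher and 10.1% lower). In HET it passed for 1, higher, over the first step (background 0.279%, 0.19% higher) and for 3, all lower, over the second (background 4.82%, 2.86% lower).

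**Figure D1:**
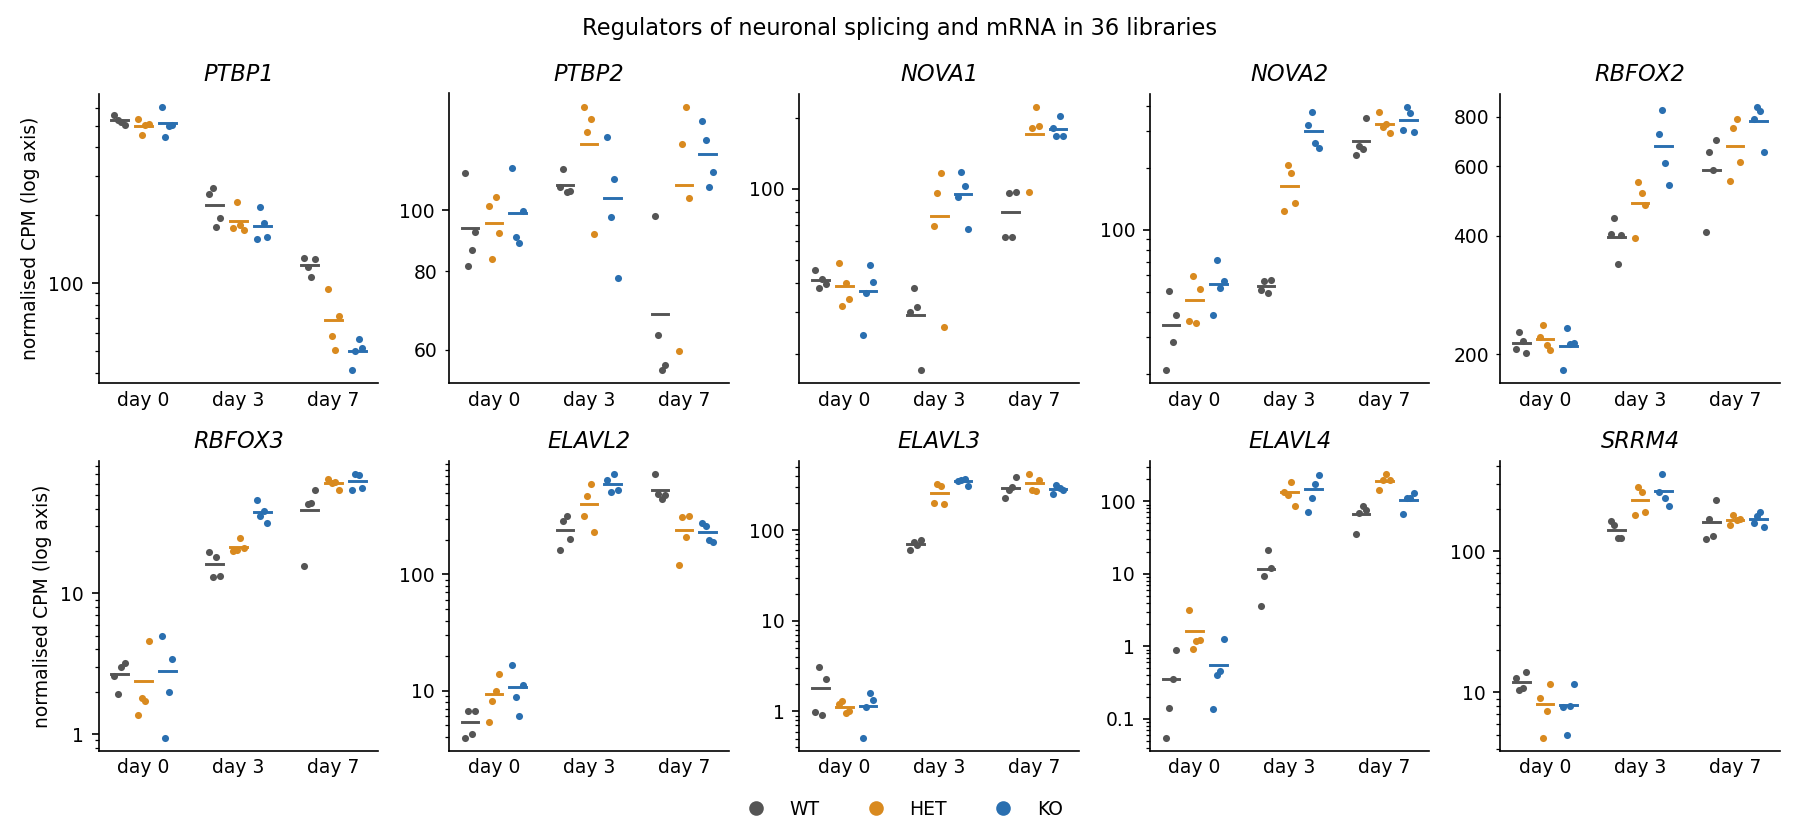
Normalised CPM of the 10 genes (log axes, 1 panel each) in the 36 libraries, by day and genotype; points are libraries and bars are group means of 4. On day 3 the KO points lie above the WT points for every gene but PTBP1 and PTBP2, and on day 7 PTBP1 and ELAVL2 lie lower in KO than in WT.

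Markers moved with these groups. Of all genes, 12.6% were called higher in KO and 2.52% in HET on day 3, and 17.0% and 8.31% on day 7. On day 7, 15.6% were called lower in KO and 6.1% in HET. On day 3 the summed level of 10 pan-neuronal genes (TUBB3, MAP2, DCX, NCAM1, STMN2, SYN1, SNAP25, NEFL, NEFM, INA) had a median of 1720.2 normalised CPM over the WT libraries, 3661 over HET and 8076 over KO, and 9 of the 10 genes were higher in KO and 5 in HET. Of 6 proliferation genes 2 were lower in KO on day 3, with sums of 1219 to 2529 in WT and 516 to 1394 in KO. All 5 tested peripheral-neuron markers (of 6 listed) were higher in KO on day 3 and 0 in HET, with sums of 9.34 to 14.3 in WT, 17.0 to 50.8 in HET and 103 to 240.3 in KO. Their sums on day 7 were 87.3 to 222 in WT, 141 to 775 in HET and 322 to 817 in KO, with 3 of 6 higher in KO and 1 in HET. On day 7 all 6 proliferation genes were lower in KO and in HET, with sums of 42.9 to 252 in WT, 17.9 to 34.3 in HET and 20.1 to 24 in KO, while 7 of 10 pan-neuronal genes were higher in KO and 5 in HET. Glial markers stayed low, at sums of 11.5 to 41.5 in every day 7 library, and TBXT, a mesendoderm gene, was at 0 in all of them. The summed level of the 9 mesendoderm and fibroblast genes on day 7 was 25.8 to 36.4 in WT, 0.816 to 28.2 in HET and 0.82 to 3.57 in KO, and both genes of that list that could be tested, the collagens COL1A1 and COL1A2, were lower in KO, COL1A2 also in HET. Of 6 progenitor genes, 3 were lower in KO on day 7 (PAX6, SOX1 and SOX2), with sums of 790.2 to 877 in WT and 469 to 561 in KO, and SOX1 was lower in HET. On day 3 HES5 was higher in KO and HET, PAX6 was higher in HET and VIM was lower in KO. The part of these shifts in the results below was not tested.

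PTBP1, the repressor of neuronal exons (chr19:797075-812327, + strand, GRCh38), fell throughout induction and fell further in the mutants by day 7. In WT its 4 libraries held 559, 531, 518 and 502 normalised CPM on day 0, then 248, 265, 177 and 195 on day 3, then 129, 118, 106 and 128 on day 7. No WT library of one day overlapped those of another. The change was −1.27 ± 0.14 from day 0 to day 3 (edgeR adjusted p = 2.93e-06) and −0.88 ± 0.14 from day 3 to day 7 (adjusted p = 0.000134). Genotypes did not separate on day 0 or day 3; on day 3 the KO libraries held 157, 219, 185 and 159.8, a change of −0.29 ± 0.18 from WT (adjusted p = 0.26). On day 7 HET held 94.6, 58.2, 50.3 and 71.2, and KO held 41.0, 50.1, 56.5 and 51.3. All 8 mutant libraries lay under the lowest WT library. KO was lower than WT by 2.47-fold (−1.3 ± 0.19, edgeR adjusted p = 0.000365). HET was lower by 1.75-fold on this scale (−0.81 ± 0.19, adjusted p = 0.0126), but on log2(TPM + 1) the HET difference was 0.10 (adjusted p = 0.853), where the median of all genes shifted by 0.46. The fall from day 3 to day 7 was steeper in KO than in WT by 0.97 (interaction −0.97 ± 0.22, adjusted p = 0.00198), and the HET interaction was −0.58 ± 0.22 (adjusted p = 0.15, or 0.0198 without HET day 7 replicate 1).

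PTBP2, the neuronal paralog (chr1:96721665-96823738, + strand), followed another course. Its WT libraries held 115, 81.6, 86.7 and 92.5 normalised CPM on day 0, 109, 116, 107 and 107 on day 3, and 98, 63.4, 55.7 and 56.8 on day 7. The first step did not pass (0.21 ± 0.17, adjusted p = 0.282, although log2(TPM + 1) gave −0.84 with adjusted p = 0.0134 and an all-gene median of −0.38), and the second was a decrease of −0.68 ± 0.17 (adjusted p = 0.00387). On day 7 HET held 59.7, 128, 146 and 105, and KO held 139, 129, 109 and 115. All 4 KO libraries lay above all 4 WT libraries, whereas HET replicate 1 lay among the WT values. KO was higher than WT by 0.82 ± 0.25 (edgeR adjusted p = 0.0242), a call that was lost on leaving out any of WT replicate 2 (0.0597), 3 (0.0705) or 4 (0.059) or KO replicate 1 (0.0732) or 2 (0.054), and with the small structural RNA share as covariate (0.55, adjusted p = 0.128). HET did not pass (0.68 ± 0.25, adjusted p = 0.0874), but passed without HET replicate 1 (0.85, adjusted p = 0.00476) or without WT replicate 1 (0.89, adjusted p = 0.0406). The change from day 3 to day 7 differed between KO and WT by 0.92 ± 0.29 (adjusted p = 0.0215).

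The balance of the pair was read as a ratio of TPM within each library, which does not depend on scaling between libraries. PTBP2 per PTBP1 was 0.207 in WT on day 0, 0.615 on day 3 and 0.665 on day 7 (geometric means, n = 4). Day 7 HET libraries held 0.852, 2.02, 3.15 and 1.41, and day 7 KO libraries held 3.62, 3.14, 2.43 and 2.92, with 0.757, 0.672, 0.72 and 0.535 in WT. So PTBP2 exceeded PTBP1 in all 4 KO libraries and 3 of 4 HET libraries on day 7, and in no WT library of any day. On day 3 the genotypes overlapped, with group means of 0.803 in HET and 0.63 in KO. KO and HET each lay wholly above WT on day 7, for an exact two-sided permutation p of 0.0286, the smallest 4 against 4 can give, and 0.102 after Benjamini-Hochberg adjustment over 32 ratio tests. With these group sizes, 0 of the 32 passed adjustment, 9 of them at an unadjusted p under 0.05.

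**Figure D2:**
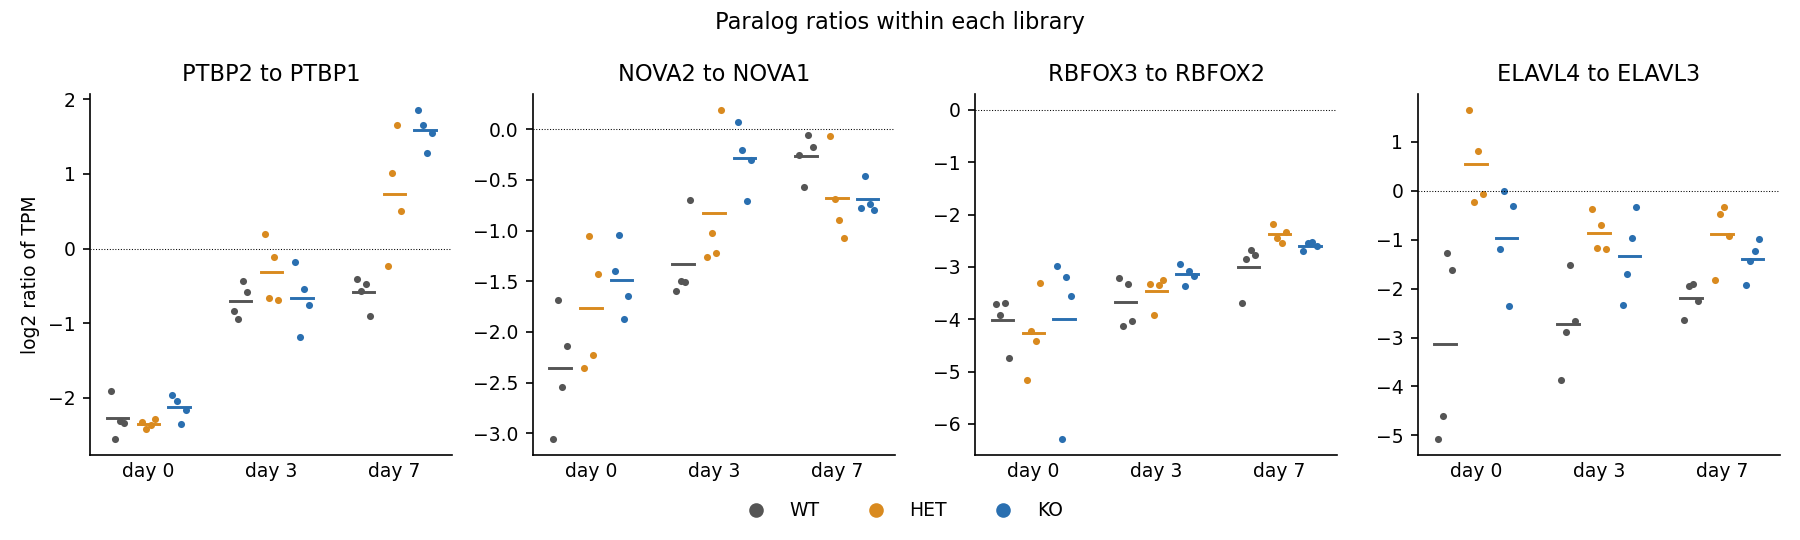
Log2 ratio of TPM of 2 paralogs in each library, by day and genotype, for PTBP2 to PTBP1, NOVA2 to NOVA1, RBFOX3 to RBFOX2 and ELAVL4 to ELAVL3; points are libraries, bars are means of 4, and the dotted line marks equal TPM. PTBP2 passes PTBP1 in all 4 KO libraries on day 7, and RBFOX2 stays above RBFOX3 in every library.

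Of the other pairs, NOVA2 per NOVA1 in WT rose with no overlap at either step, from 0.195 on day 0 to 0.399 on day 3 and 0.833 on day 7 (p = 0.0286 at each step by the exact permutation test, adjusted p = 0.102). In KO the same ratio was 0.821 on day 3 and 0.619 on day 7. RBFOX3 per RBFOX2 stayed under 0.22 in every library. ELAVL4 per ELAVL3 on day 3 was 0.15 for WT, 0.55 for HET and 0.394 for KO, and on day 7 it was 0.22, 0.54 and 0.379 in that order. HET lay wholly above WT on days 0, 3 and 7 for this pair (exact permutation p = 0.0286 each, adjusted p = 0.102), and KO overlapped WT on each.

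ELAVL2, which encodes HuB (chr9:23690104-23826337, − strand), rose early and then took opposite courses. In WT it went from 3.92, 6.62, 4.25 and 6.71 normalised CPM on day 0 to 162, 288, 320.3 and 204 on day 3 and 731, 488, 449 and 481 on day 7. Each day stood above the one before, with changes of 5.49 ± 0.29 (adjusted p = 2.53e-09) and 1.14 ± 0.24 (adjusted p = 0.00123). KO held 650.0, 511, 729.6 and 532 on day 3 and 279, 260.2, 199 and 190.1 on day 7. KO was thus 2.49-fold higher than WT on day 3 (1.32 ± 0.30, edgeR adjusted p = 0.00638) and 2.37-fold lower on day 7 (−1.24 ± 0.28, adjusted p = 0.00479), without overlap either time. Without WT day 7 replicate 1, the highest library, the day 7 difference was −1.07 (adjusted p = 0.0148). HET libraries held 321, 471, 604 and 231 on day 3 (0.74 ± 0.29, adjusted p = 0.247, or 0.0495 with the replicate block) and 121, 309.6, 212 and 319 on day 7 (−1.16 ± 0.28, adjusted p = 0.0148, or 0.053 without HET replicate 3). The change from day 3 to day 7 differed from that of WT by −2.53 ± 0.45 in KO (adjusted p = 0.000119) and −1.90 ± 0.45 in HET (adjusted p = 0.00895).

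ELAVL3, which encodes HuC (chr19:11451326-11481046, − strand), was near 1 normalised CPM on day 0, where WT held 0.986, 3.06, 0.91 and 2.31. WT reached 61.2, 74.7, 68.7 and 77.6 on day 3 and 225, 275, 303 and 383 on day 7, by 5.26 ± 0.35 (adjusted p = 2.06e-08) and 2.08 ± 0.29 (adjusted p = 4.48e-05). On day 3 HET held 198, 324, 309 and 195 and KO held 354, 359, 372 and 308. Both mutants lay wholly above WT, and the KO values on day 3 were within the range that WT held on day 7. KO was 4.94-fold higher than WT (2.31 ± 0.20, edgeR adjusted p = 6.26e-06) and HET 3.63-fold higher (1.86 ± 0.19, adjusted p = 9.93e-05). By day 7 the groups overlapped, with WT at 296 ± 66.0, HET at 331 ± 68.9 and KO at 284 ± 24.6 (SD, n = 4), and neither mutant passed (adjusted p = 0.644 and 0.732). The interactions were 2.99 ± 0.40 in KO and 2.56 ± 0.40 in HET from day 0 to day 3, then −2.36 ± 0.37 and −1.70 ± 0.36 from day 3 to day 7 (adjusted p = 1.28e-05, 0.000634, 1.84e-05 and 0.00411). ELAVL3 was the 1 gene of the 10 whose HET course from day 0 to day 3 passed (background 0.279%). The interactions from day 0 start from few reads, 36 to 131 in WT, 25 to 45 in HET and 19 to 49 in KO.

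ELAVL4, which encodes HuD (chr1:50048014-50203786, + strand), was barely counted in WT on day 0, with 2, 6, 15 and 30 reads. The HET libraries, with 27 to 120 reads, already lay wholly above WT on day 0, at 0.909 to 3.21 normalised CPM against 0.0548 to 0.887. KO overlapped WT there (0.135 to 1.24), and neither mutant passed on day 0. WT held 3.58, 9.36, 21.1 and 11.8 normalised CPM on day 3 and 35.3, 67.9, 85.2 and 75.2 on day 7, after steps of 5.03 ± 0.64 (adjusted p = 1.16e-05) and 2.53 ± 0.51 (adjusted p = 0.000878). On day 3 HET held 134, 121, 185 and 87.2 and KO held 71.6, 109.8, 174 and 231. The lowest mutant library was over 3-fold above the highest WT library. KO was 12.8-fold higher than WT (3.68 ± 0.50, edgeR adjusted p = 0.000213) and HET 11.5-fold higher (3.52 ± 0.50, adjusted p = 0.00108), with no difference detected between KO and HET (0.16 ± 0.45, adjusted p = 0.893). On day 7 the order changed: HET held 142, 195, 236 and 197 and KO held 66.4, 109.9, 109.8 and 129. HET was above WT by 1.54 ± 0.28 (adjusted p = 0.00377), and KO by 0.62 ± 0.27, which did not pass (adjusted p = 0.0969, and 0.41 without WT replicate 1). All 4 KO libraries lay under all 4 HET libraries on day 7, although that contrast did not pass (−0.91 ± 0.28, adjusted p = 0.153). Its KO interaction from day 0 to day 3 (3.00 ± 0.85, adjusted p = 0.0242) was lost without WT day 0 replicate 4 (0.193) or KO day 0 replicate 1 (0.0551).

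**Figure D3:**
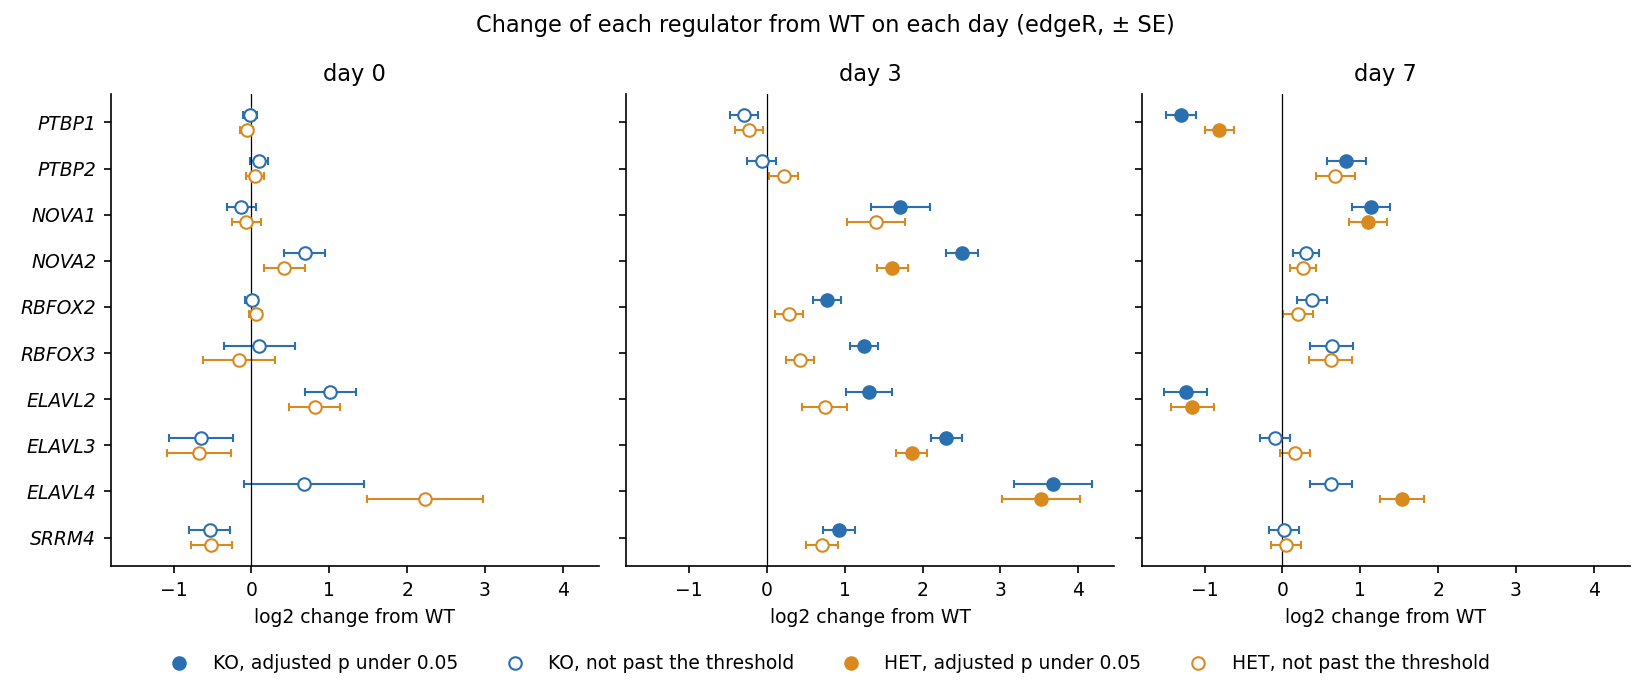
Log2 change from WT (edgeR estimate, bars ± SE) of the 10 genes in KO and HET on each day; filled circles passed an adjusted p of 0.05. On day 3, 8 KO circles are filled and to the right, and on day 7 PTBP1 and ELAVL2 are filled and to the left in both genotypes (on log2(TPM + 1) the HET difference of PTBP1 on day 7 turned to 0.10).

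NOVA1 (chr14:26443093-26597754, − strand), a neuronal splicing factor of the KH-domain family, was present in stem cells and rose in WT only in the second step. WT held 45.1, 37.8, 41.6 and 39.6 normalised CPM on day 0, 30.0, 37.8, 31.5 and 17.0 on day 3, and 62.5, 96.3, 62.5 and 97.2 on day 7. The first step was −0.51 ± 0.22 (adjusted p = 0.0606, or 0.0243 without WT day 3 replicate 2) and the second a rise of 1.46 ± 0.22 (adjusted p = 0.000101). In KO the libraries held 92.2, 118, 103 and 67.5 on day 3 and 181, 167, 203 and 168 on day 7. KO lay wholly above WT on both days, by 1.71 ± 0.38 (edgeR adjusted p = 0.00564) and 1.14 ± 0.24 (adjusted p = 0.00346). HET held 69.6, 95.6, 117 and 25.9 on day 3, so that replicate 4 lay inside the WT range. The HET difference was 1.4 ± 0.37 (adjusted p = 0.0595), but passed without that library (1.69, adjusted p = 0.00209) and with the replicate block (1.3, adjusted p = 0.00194). On day 7 HET held 96.5, 180.5, 223 and 185 and passed at 1.10 ± 0.24 (adjusted p = 0.00978), with replicate 1 inside the WT range.

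NOVA2 (chr19:45933734-45973546, − strand), the paralog whose upstream sequence is printed above, had the smallest adjusted p of the 10 in KO on day 3. WT held 20.7, 50.1, 28.4 and 38.6 normalised CPM on day 0, 51.0, 56.2, 49.0 and 57.2 on day 3, and 231, 256, 246 and 350.0 on day 7. Its main rise in WT came late: 0.62 ± 0.22 from day 0 to day 3 (adjusted p = 0.0277, but −0.19 on log2(TPM + 1), adjusted p = 0.539) and 2.35 ± 0.23 from day 3 to day 7 (adjusted p = 1.81e-06). The first step also lost its call on leaving out WT day 0 replicate 1 (0.0785) or 3 (0.0823) or WT day 3 replicate 2 (0.0545) or 4 (0.0555). On day 3 HET held 124, 206, 188 and 135 and KO held 324, 374, 264 and 248. The 3 genotypes did not overlap, WT lowest and KO highest. KO was 5.68-fold (2.51 ± 0.20, edgeR adjusted p = 4.53e-06) and HET 3.06-fold above WT (1.61 ± 0.20, adjusted p = 0.000383). KO exceeded HET by 0.89 ± 0.19 (adjusted p = 0.0219), a call lost without HET replicate 1 (0.0831), KO replicate 1 (0.0661) or KO replicate 2 (0.056). On day 7, 327 ± 34.2 in HET and 342 ± 48.6 in KO (SD, n = 4) did not pass against 271 ± 53.9 in WT, except for KO without WT replicate 4 (0.46, adjusted p = 0.0405). The interaction turned from 1.84 ± 0.31 (day 0 to 3, adjusted p = 0.000279) to −2.17 ± 0.31 (day 3 to 7, adjusted p = 6.49e-06) in KO, and was −1.34 ± 0.31 in HET over the second step (adjusted p = 0.00801).

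RBFOX2 (chr22:35738736-36028425, − strand), a GCATG-binding splicing factor found in many tissues, was present at every stage. WT held 206, 228, 216 and 202 normalised CPM on day 0, 403, 443, 339.7 and 403 on day 3, and 408, 650.0, 588 and 698 on day 7. It rose by 0.88 ± 0.16 (adjusted p = 0.000306) and 0.57 ± 0.16 (adjusted p = 0.00985) on this scale, whereas log2(TPM + 1) gave −0.01 for the first step (adjusted p = 0.972), against the all-gene median of −0.38. KO held 724, 832, 610.0 and 539 on day 3, wholly above WT (0.77 ± 0.18, edgeR adjusted p = 0.00782), while HET held 395, 548, 514 and 479 (0.29 ± 0.18, adjusted p = 0.535). On day 7 the groups overlapped (KO 0.37 ± 0.19, adjusted p = 0.154). The KO interaction from day 0 to day 3 was 0.79 ± 0.21 (adjusted p = 0.019, or 0.0548 without KO day 3 replicate 2).

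RBFOX3, which encodes the postmitotic-neuron antigen NeuN (chr17:79089345-79516148, − strand), stayed the lowest of the paralog pair. WT held 2.58, 1.92, 2.99 and 3.22 normalised CPM on day 0, 19.8, 13.1, 18.1 and 13.2 on day 3, and 15.7, 43.4, 43.6 and 54.0 on day 7. In TPM, WT overlapped between day 0 (1.12 to 3.08) and day 3 (1.8 to 5.11), beside an all-gene median change of −0.38 on log2(TPM + 1). The effective length implied for RBFOX3 was 999.6 ± 635 bases in WT on day 0 and 2071 ± 178 on day 3 (SD, n = 4, exact two-sided permutation p = 0.0571, adjusted p = 0.254). Replicate 1 of day 7 lay at the day 3 level, and without it the second step was 1.57 rather than 1.3 ± 0.30 (adjusted p = 1.31e-05 and 0.00282). On day 3 HET held 20.1, 20.3, 24.5 and 21.0 and KO held 45.9, 35.2, 38.7 and 31.6. The 3 genotypes did not overlap, though only KO passed against WT (1.24 ± 0.18, edgeR adjusted p = 0.000347; HET 0.42 ± 0.18, adjusted p = 0.293). KO exceeded HET by 0.82 ± 0.18 (adjusted p = 0.0218), a call lost without HET replicate 1 (0.0823) or 2 (0.0615) or KO replicate 1 (0.0743) or 3 (0.0511). On day 7 both mutants lay wholly above WT, at 60.7 ± 4.54 in HET and 62.4 ± 8.56 in KO against 39.2 ± 16.4 (SD, n = 4), without passing (adjusted p = 0.156 and 0.0993). The KO difference on day 7, 0.63, was 0.36 without WT replicate 1 (adjusted p = 0.0805) and 0.83 without WT replicate 4, where it passed (adjusted p = 0.0471), and the HET difference, 0.62, was 0.35 without WT replicate 1.

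SRRM4, the activator of neuronal microexons (chr12:118981495-119163051, + strand), reached its WT plateau by day 3. WT held 12.6, 10.4, 10.8 and 13.9 normalised CPM on day 0, 163, 153, 124 and 123 on day 3, and 121, 170.3, 127 and 229 on day 7. The first step was 11.7-fold (3.55 ± 0.22, adjusted p = 1.02e-08), and the second did not pass (0.21 ± 0.20, adjusted p = 0.401). On day 3 HET held 181, 284, 261 and 191 and KO held 264, 351, 238 and 208, both wholly above WT. KO passed (0.92 ± 0.21, edgeR adjusted p = 0.00622), and HET did not (0.71 ± 0.20, adjusted p = 0.0893) except with the replicate block (0.69, adjusted p = 0.0173). On day 7 the groups overlapped, with WT at 162 ± 49.7, HET at 168 ± 11.7 and KO at 168 ± 18.0 (SD, n = 4) and a KO difference of 0.02 ± 0.19 (adjusted p = 0.945). The KO interaction was 1.47 ± 0.33 from day 0 to day 3 (adjusted p = 0.0038) and −0.86 ± 0.32 from day 3 to day 7 (adjusted p = 0.0571). The second value passed on leaving out any of KO day 3 replicate 3 (0.0437) or 4 (0.0283), WT day 7 replicate 1 (0.0249) or 3 (0.0331), or KO day 7 replicate 3 (0.0498).

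Strand use in counting is not given in the sources used here, and RBFOX2, RBFOX3, ELAVL4 and SRRM4 each overlap an annotated gene on the other strand (GENCODE 29), so reads of such partners could not be told apart. Set per length, TPM ordered the genes differently by stage. On day 0 PTBP1 led in WT at 177 ± 29.6 TPM (SD, n = 4), above PTBP2 (37.7 ± 13.0) and RBFOX2 (36.8 ± 4.76), whose ranges overlapped, and NOVA1 (17.1 ± 2.06). The other 6 were under 5 TPM in every WT day 0 library. By day 3 in WT, ELAVL2 (38.6 ± 14.2), RBFOX2 (38.1 ± 13.7) and PTBP1 (35.1 ± 16.7) overlapped at the top. On day 7 ELAVL2, ELAVL3 and RBFOX2 led in WT at 72.9, 43.5 and 39.2 TPM, overlapping in range, and the lowest RBFOX2 library stood above every PTBP1 library (14.9 ± 4.19). In day 7 KO the order opened with RBFOX2 (73.9 ± 19.6), ELAVL3 (55.4 ± 13.8) and ELAVL2 (41.8 ± 10.4), and PTBP1 had dropped to the last 2 places with SRRM4 (9.49 ± 3.56 and 9.41 ± 2.17). All neighbours in that order overlapped in range.

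Genes known to act above PTBP1 moved over the same days. REST, the repressor of neuronal genes, held 67.6, 62.8, 47.6 and 55.9 normalised CPM in WT on day 3, 34.4, 31.8, 23.9 and 42.6 in HET, and 10.6, 22.2, 11.4 and 17.6 in KO. Day 7 values were 19.2, 13.7, 9.75 and 8.55 in WT, 3.16, 5.78, 5.34 and 4.35 in HET, and 2.77, 3.95, 3.45 and 3.62 in KO. REST was lower in KO by −1.92 ± 0.25 on day 3 (edgeR adjusted p = 0.000154) and −1.92 ± 0.28 on day 7 (adjusted p = 0.000344), and lower in HET by −1.46 ± 0.27 on day 7 (adjusted p = 0.00457). MIR124-2HG, a host gene of miR-124, was higher in KO on day 3 by 3.51 ± 0.41 (adjusted p = 7.4e-05), with 114, 37.0, 62.0 and 67.7 against 3.68, 6.78, 7.65 and 6.59 in WT, and in HET by 1.68 ± 0.39 (adjusted p = 0.0297). MIR124-1HG was higher in HET on day 3 (1.13 ± 0.26, adjusted p = 0.0292) and was not called in KO. Host-gene reads are not mature miR-124, and no small RNA was measured. NEUROG2, the induced factor, was lower in KO on day 3, at 8607, 7547, 8201 and 10934 against 23463, 20377, 19948 and 25464 in WT (−1.34 ± 0.21, adjusted p = 0.000526). HET held 14724 to 19153 on day 3, below every WT library and above every KO library, but was not called against WT. On day 7 KO held 20.1 to 31.1 against 47.7 to 95.6 in WT, and HET overlapped WT. NEUROG2 already differed on day 0, with means of 21.3 normalised CPM in WT, 7.84 in HET and 1.87 in KO. Every KO library on day 0 (1.55 to 2.24) lay below every WT library (10.7 to 32.3), while HET overlapped WT. The part of this difference in the later results was not tested. Reads of the transgene and the endogenous gene could not be told apart. In the list of 10 genes of this kind, which also holds RCOR1, RCOR2, HDAC2, CTDSP1, CTDSP2 and CTDSPL, 1 was higher and 3 lower in KO on day 3 (all genes, 21.6% called), and 1 higher and 6 lower on day 7 (all genes, 32.6% called, 15.6% lower).

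**Figure D4:**
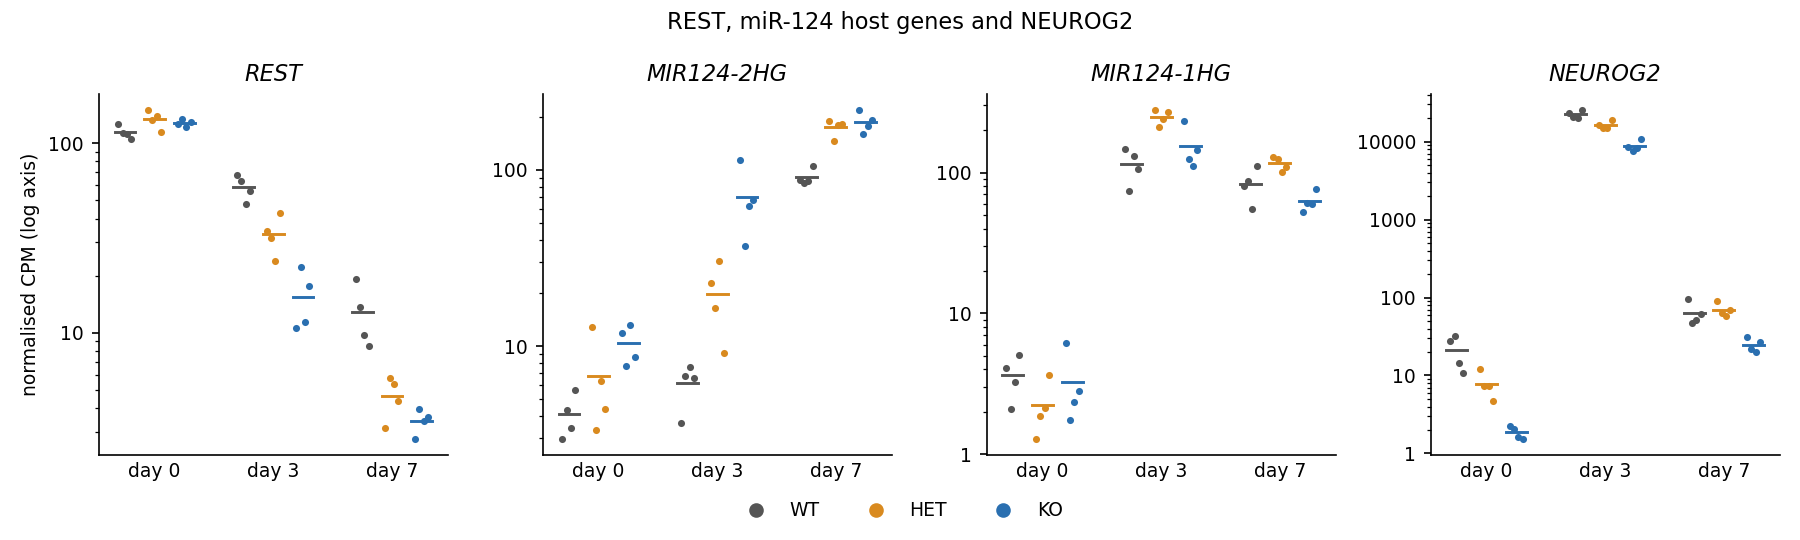
Normalised CPM (log axes) of REST, the miR-124 host genes MIR124-2HG and MIR124-1HG, and NEUROG2 in the 36 libraries, by day and genotype; points are libraries and bars are means of 4. On day 3 the KO points lie below the WT points for REST and NEUROG2 and above them for MIR124-2HG.

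Among 15 other RNA-binding proteins of neurons or of broad expression, 6 were higher and 2 lower in KO on day 3, 4 higher and 0 lower in HET on day 3, 6 higher and 1 lower in KO on day 7, and 2 higher and 2 lower in HET on day 7. The shares of all genes called in these comparisons were 21.6%, 3.28%, 32.6% and 14.4%. The shares called higher were 12.6%, 2.52%, 17.0% and 8.31%, and on day 7 15.6% were lower in KO and 6.1% in HET. Medians of the 15 against WT were 0.36, 0.20, 0.29 and 0.29, beside all-gene medians of −0.05, 0.02, −0.04 and 0.00. The CELF factors CELF3 (1.92 ± 0.22), CELF5 (1.74 ± 0.23) and CELF4 (1.72 ± 0.21) led in KO on day 3 (edgeR adjusted p = 5.76e-05, 0.000144 and 8.49e-05). RBFOX1, the third RBFOX paralog, was 2.47 ± 0.39 higher in KO on day 7 (adjusted p = 0.000571), at 119, 34.8, 60.8 and 33.8 normalised CPM against 13.6, 7.06, 13.3 and 9.97 in WT. QKI, which is abundant in stem cells and glia, was lower in KO on day 3 (−0.91 ± 0.18, adjusted p = 0.00251) and in KO and HET on day 7 (−2.14 ± 0.24 and −1.34 ± 0.24, adjusted p = 7.79e-05 and 0.0033).

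Among stem cell and epithelial RNA-binding proteins in WT, 6 of 10 were lower and 2 higher on day 3 than on day 0, beside 28.7% of all genes lower and 31.2% higher, with RBM47 from 46.8 to 0.0415 normalised CPM and ESRP2 from 11.1 to 0.794 among those lower, and the Musashi genes MSI1 and MSI2 among those higher. Against WT, 8 of the 10 could be tested on days 3 and 7. In KO 3 were higher and 0 lower on day 3 (all genes, 12.6% higher). On day 7, 1 was higher and 3 lower in KO (all genes, 17.0% and 15.6%). In HET 1 was higher and 0 lower on each day (all genes, 2.52% and 8.31% higher). LIN28A, the let-7 antagonist of stem cells, was higher in mutants on day 7, at 308, 254, 231 and 221 in KO and 55.4, 109.5, 137 and 104 in HET against 13.1, 25.8, 26.6 and 29.4 in WT. The 3 groups did not overlap, and the differences from WT were 3.38 ± 0.31 (edgeR adjusted p = 1.52e-05) and 2.09 ± 0.29 (adjusted p = 0.000904). MSI2 was higher in KO on day 3 (1.31 ± 0.15, adjusted p = 5.87e-05) and lower on day 7 (−1.22 ± 0.22, adjusted p = 0.00126).

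General splicing factors fell with time in WT. Of 26 SR proteins, hnRNPs and core factors, 22 were lower and 0 higher from day 0 to day 3 (median −0.79), and 19 were lower and 0 higher from day 3 to day 7 (median −0.62), beside 28.7% and 22.9% of all genes lower. HNRNPM (−2.18 ± 0.33), SRSF6 (−1.76 ± 0.16) and SRSF2 (−1.60 ± 0.17) fell most in the first step. Between genotypes few were called, where 21.6% of all genes were on day 3 and 32.6% on day 7 in KO: 2 of 26 were lower in KO on day 3, HNRNPF (−0.70 ± 0.14, edgeR adjusted p = 0.00329) and U2AF1 (−0.55 ± 0.17, adjusted p = 0.0339), and 3 on day 7, HNRNPC, HNRNPA1 and U2AF1. In HET 0 of 26 passed on day 3 and 1 on day 7 (HNRNPA1, −0.96 ± 0.17, adjusted p = 0.0037).

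A list of 8 genes described as targets of these regulators (DLG4, GABBR1, GAP43, MAPT, GPHN, DAB1, PKM, FLNA) was read at the gene level only, which does not show splicing. In KO 3 were higher and 0 lower on day 3, where 12.6% of all genes were called higher and 21.6% in all, and 5 were higher and 1 lower on day 7, where 17.0% and 15.6% were. GAP43, a growth-cone gene whose mRNA HuD binds, was higher in KO on day 3 (3.15 ± 0.48, edgeR adjusted p = 0.000472), at 242, 104, 205 and 126 normalised CPM against 10.7, 21.8, 29 and 14.9 in WT. MAPT, which encodes tau, was higher by 2.51 ± 0.25 on day 3 (adjusted p = 2.21e-05) and 1.79 ± 0.32 on day 7 (adjusted p = 0.00135). DAB1, a reelin adaptor spliced by NOVA, was higher in KO (3.4 ± 0.54, adjusted p = 0.000636) and HET (2.29 ± 0.52, adjusted p = 0.0114) on day 7. FLNA was lower in KO on day 7 (−1.49 ± 0.26, adjusted p = 0.00108). DLG4, whose mRNA is destabilised when PTBP proteins skip one of its exons, was 3.21 ± 0.20 higher in WT on day 3 than on day 0 (adjusted p = 1.34e-08) and was not called between KO and WT on day 3.

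The deposited counts and FPKM give an effective length for each gene in each library, which moves with the isoforms assigned to it. Of 71 tests over genes and comparisons, 0 passed adjustment and 5 reached an exact two-sided permutation p of 0.0286, the smallest possible with 4 against 4 (adjusted p = 0.254). NOVA1 was 2344 ± 88.3 bases in KO and 1761 ± 91.5 in WT on day 7 (SD, n = 4). ELAVL2 was 2607 ± 99.96 in HET and 2153 ± 62.3 in WT on day 7, ELAVL4 was 2281 ± 120 in HET and 1986 ± 90.7 in WT on day 7, NOVA1 was 1491 ± 209 in WT on day 3 and 1835 ± 109 on day 0, and RBFOX2 was 4557 ± 70.6 in WT on day 7 and 4054 ± 169 on day 3. None of these estimates names an exon or an isoform.

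Over the 36 libraries, which share days and genotypes, the genes whose log2(normalised CPM + 1) was most like 9 of the 10 were listed as a description. MATR3 was closest to PTBP2 (Pearson r = 0.838), CPB2-AS1 to NOVA1 (0.958), ATCAY to NOVA2 (0.98) and ABCA3 to RBFOX2 (0.98). CRMP1 was closest to RBFOX3 (0.987), FOXP2 to ELAVL2 (0.985), SVOP to ELAVL3 (0.994), DRD2 to ELAVL4 (0.973) and XKR7 to SRRM4 (0.989). Among the 10 themselves, ELAVL3 and SRRM4 were most alike (0.976), PTBP1 ran opposite to the 8 genes other than PTBP2 (−0.754 to −0.917), and PTBP2 stayed between −0.164 and 0.241 with all others.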

How the data were processed

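Total RNA of 36 H9-derived libraries was depleted of rRNA and sequenced, per the labels' protocols. The submitters' processing notes name cutadapt 4.8, FastQC 0.11.8, MultiQC 1.20, STAR 2.7.8a, RSEM 1.3.3 and GRCh38. The annotation release and strand setting are not given in the sources used here. The authors deposited expected counts per gene, and their deposited TPM and FPKM tables give the same genes per length and depth.

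Expected counts were rounded and 4 reporter rows set aside. edgeR 4.0.16 (TMM, filterByExpr, quasi-likelihood test, Benjamini-Hochberg over all genes, threshold 0.05) was run in R 4.3.3 on the 12 libraries of a day, the 12 WT libraries, or all 36 for interactions. Normalised CPM used TMM over 36 libraries; 3 counts correspond to 0.054 to 0.119. TPM ratios and effective lengths (from counts and FPKM) were compared by exact two-sided permutation tests. Alternatives were DESeq2 1.42.0, its size factors, library size alone, limma 3.58.1 on log2(TPM + 1) and log2(TPM + 0.1), no filter, the small structural RNA share as covariate, a replicate block and leaving out each library.

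Same-numbered libraries deviated together (every correlation over 0.1) in KO against WT on days 0 (0.271 to 0.656) and 3 (0.145 to 0.558) and in HET against WT on day 3 (0.175 to 0.775), so numbers were taken to pair samples there only. On simulated counts for KO against WT on day 3 (21066 genes, 100 changed at each fold), the edgeR step recovered 90% of 4-fold and 33% of 2-fold changes. For the KO interaction from day 0 to day 3 it recovered 76% and 26%. Only well-counted genes were changed, and far fewer than were called in the data. These shares therefore do not give the recovery of low-count genes or that in the real comparisons. Named were all 10 genes, RAI1, up to 3 genes per list, comparison and direction with the largest called change and no overlap between groups, and the gene closest by Pearson r, which for PTBP1 is not reported here. The genes and lists were chosen with earlier results of these data known. Gene positions come from GENCODE 29 on GRCh38, in which 92.9% of the file's gene identifiers were found.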

Additional observations from a re-analysis of the deposited data

Results flagged for a closer look

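In 4 of 90 groups of 4 libraries, 1 library stood far from the other 3; chance alone would give about 4.5. PTBP1 was 229 normalised CPM in HET day 3 replicate 2 (others 171 to 180.4). RBFOX3 was 4.56 in HET day 0 replicate 4 (1.36 to 1.82). ELAVL2 was 731 in WT day 7 replicate 1 (449 to 488), the library with 25.6% small structural RNA and the highest proliferation sum of its group (252); the part of either in this value was not tested. ELAVL4 was 3.21 in HET day 0 replicate 1 (0.909 to 1.21), from 120 reads.

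Changes over time that differed between genotypes by the edgeR interaction test were as follows. From day 0 to day 3 (background 8.42%), the KO change lay above that of WT for 6 genes: RBFOX2 by 0.79, NOVA2 by 1.84, SRRM4 by 1.47, NOVA1 by 1.86, ELAVL4 by 3.00 and ELAVL3 by 2.99. NOVA1 did not rise in WT over this step, with group means of 41.0 normalised CPM on day 0 and 29.1 on day 3. From day 3 to day 7 (background 18.6%), the KO change exceeded that of WT for PTBP2 (0.92) and lay below it for PTBP1 (−0.97), NOVA2 (−2.17), ELAVL2 (−2.53), ELAVL3 (−2.36) and ELAVL4 (−3.02). The PTBP2 value was lost, at adjusted p of 0.0535 to 0.0646, on leaving out KO day 3 replicate 4, WT day 7 replicate 2, 3 or 4, or KO day 7 replicate 1. In HET, ELAVL3 rose more than in WT by 2.56 from day 0 to day 3 (background 0.279%), and 3 genes changed less or in the opposite direction from day 3 to day 7 (background 4.82%): NOVA2 (−1.34), ELAVL2 (−1.90) and ELAVL3 (−1.70). These contrasts share WT libraries and are not independent of each other.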

How the results depend on the processing

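Counts of the 10 genes called moved with the tool and the scale. Calls over all genes, of 20437 to 24764 tested, moved as well and are given beside them, except for left-out libraries. With limma on log2(TPM + 1) and log2(TPM + 0.1), where the median of all genes shifts, KO against WT gave 3 and 4 on day 3 (816 and 1246 over all genes) and 0 and 0 on day 7 (1007 and 1915). HET against WT gave 1 and 1 on day 0 (184 and 236), 1 and 1 on day 3 (39 and 106), and 0 and 1 on day 7 (271 and 1259). KO against HET gave 0 and 0 on day 3 (39 and 94). The interactions gave 2 and 2 (KO, day 0 to 3, 321 and 323 over all genes), 3 and 3 (KO, day 3 to 7, 942 and 1210) and 0 and 0 (HET, day 3 to 7, 109 and 166). On TPM + 1 and + 0.1 the sign turned for PTBP1 in HET on day 7 (0.10 and 0.099), and in WT from day 0 to day 3 for RBFOX2 (−0.0134 and −0.0154), NOVA2 (−0.19 and −0.24) and PTBP2 (−0.84 and −0.87). DESeq2 gave 1 (KO against WT, day 0, 902 over all genes), 5 (HET against WT, day 3, 1321), 1 (KO against HET, day 7, 857) and 3 (HET, day 0 to 3, 196). With the replicate block the counts were 2 (KO against WT, day 0, 960 over all genes), 6 (HET against WT, day 3, 1895) and 8 (KO against WT, day 3, 8137) where the numbers pair samples. Where pairing was not shown they were 1 (HET against WT, day 0, 689), 1 (KO against HET, day 7, 394) and 2 (HET, day 0 to 3, 95). Library size alone gave 1 for KO against HET on day 3 (829 over all genes), and the small-RNA covariate 1 for HET against WT on day 0 (330). Leaving out single libraries gave 0 to 2 for KO against HET on day 3, 1 to 2 for HET from day 0 to 3, 8 to 8 and 3 to 4 for KO and HET against WT on day 3, 3 to 5 for each on day 7, 5 to 6 and 5 to 8 for KO from day 0 to 3 and 3 to 7, and 3 to 4 for HET from day 3 to 7. Without WT day 7 replicate 1, KO from day 3 to 7 gave 8. Where a count moved, the cause was not tested. Depth limits ELAVL4 on day 0, where WT libraries held 2 to 30 reads. Reads on day 0 were also few for ELAVL3 (36 to 131 in WT, 25 to 45 in HET, 19 to 49 in KO) and RBFOX3 (82 to 128, 45 to 173 and 28 to 184).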
